A study of Canis lupus familiaris with 15 samples.

Results

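Small RNA was sequenced from the spleens of dogs, and this account concerns where the reads of each microRNA (miRNA) hairpin fell and how exactly they matched the annotated miRNA, in hemangiosarcoma set against the other spleens. Of 313 hairpins listed in the deposited tables, 203 had a Total of 1000 or more reads summed over the 15 samples and were kept. The lowest Total inside this limit was 1112 reads and the highest outside it was 990 reads. The kept hairpins held 99.97% of all reads, belonged to 177 miRNAs by name, and included 49 hairpins that are copies of 23 miRNAs. The samples were 5 spleens with hemangiosarcoma, a malignant tumor of cells that line blood vessels, 5 with nodular hyperplasia, a benign mass, and 5 normal spleens. Each sample was 1 library of bulk tissue. Both kinds of mass came from client-owned dogs having the spleen removed, and the normal spleens from an archive of frozen tissue, so differences from normal spleen cannot be told apart from the source of the tissue.

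A miRNA is cut from a folded precursor, the hairpin, first by Drosha and then by Dicer. Either arm of the hairpin can give a mature strand, and the strand not kept, the loop and flanking pieces can also be sequenced. Mature strands vary by a few bases at their ends, or gain added bases, and such variants are called isomiRs. A hairpin's reads were divided by the deposited tables into those on the annotated mature sequence and those elsewhere, named Other. In every kept hairpin only 1 arm was annotated, the 5' arm in 120 and the 3' arm in 83. Reads of an unannotated arm therefore counted as Other. The Other share is Other reads as a percent of all reads of the hairpin. The Exact share is the percent of mature reads that matched the annotated mature sequence exactly, so that a low Exact share means many variant reads. Neither share measures how abundant a miRNA was.

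Libraries held 3939854 to 8255880 hairpin reads. The shares of hemangiosarcoma replicate 3 stood apart from those of the other libraries. Among the 185 hairpins with 20 or more reads in every library, its Other share was the highest or lowest of all 15 libraries in 78 hairpins, against 9 to 52 for the other hemangiosarcoma libraries and 10 to 48 for the 10 other spleens. For the Exact share it was at an extreme in 68 of 174 hairpins, against 8 to 53 and 6 to 42. Its median deviation from the hairpins' means was 0.39 in the log2 odds of the Other share, the highest of the 15 libraries, and -0.17 in those of the Exact share, the lowest. What set this library apart was not tested. Counts of called hairpins are given with and without this library.

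**Figure D1:**
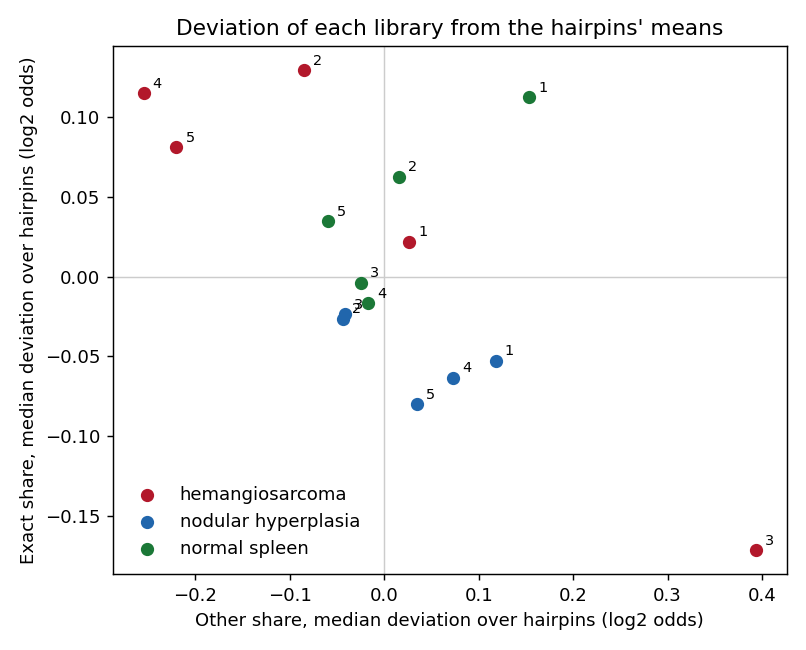
Each point is 1 library, numbered by replicate. The x axis is the median over the 203 hairpins of the deviation of the log2 odds of the Other share from the hairpin's mean over 15 libraries, and the y axis is the same for the Exact share. Hemangiosarcoma replicate 3 lies alone at the lower right, at 0.39 and -0.17.

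Most hairpins gave few Other reads. The median hairpin had a mean Other share of 6.62% over the 15 libraries, 85 of 203 were under 5%, and 27 were over 50%. The 5 highest were mir-139, mir-505, mir-676, mir-193b and mir-17. The mir-139 hairpin, which lies in the span of PDE2A, had Other shares of 96.7% to 97.9% in hemangiosarcoma and 96.4% to 98.9% in the others. For mir-17, a growth-promoting miRNA of the mir-17-92 cluster, the ranges were 92.4% to 95.0% and 90.5% to 95.0%. In neither did the groups separate, and neither passed the test (adjusted p = 0.50 and 0.80, edgeR).

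Exact matches were the minority of mature reads in most hairpins. The median hairpin had a mean Exact share of 31.6%, with 29 of 203 over 50% and 9 under 1%. At the low end, mir-450a had 0 exact reads among 29534 mature reads in all, which allows a share of up to 0.0102%. The erythroid miRNA mir-144 had 22 exact reads of 703520, and mir-10b, a miRNA of the HOX gene clusters, had 92 of 1423107. These few reads were divided between the groups as 9 of 207448 in hemangiosarcoma against 13 of 496072 in the others for mir-144, and 50 of 757096 against 42 of 666011 for mir-10b. So for these miRNAs nearly every mature read differed from the annotated sequence in every group. The next lowest were mir-592, with 9 exact reads of 1692, and mir-210, a hypoxia miRNA, with 5 of 14420. The other 4 under 1% were mir-32, mir-345 and both copies of mir-24, named after their values were seen.

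The first question was whether a whole library of hemangiosarcoma had more reads off the mature sequence. It did: 7.85%, 9.30%, 17.2%, 22.8% and 16.7% of hairpin reads were Other in hemangiosarcoma, against 6.43%, 9.04%, 10.4%, 5.37% and 7.67% in nodular hyperplasia and 4.82%, 5.26%, 8.57%, 7.17% and 7.77% in normal spleen. The 3 highest libraries were all hemangiosarcoma, and the other 2 lay within the range of the remaining spleens. Means were 14.8% and 7.25%, a difference of 7.52 percentage points (n = 5 and 10, two-sided exact permutation test over 3003 orderings, p = 0.0037). The smallest p this design allows is 0.00033. Against each group alone the difference was 6.998 points over nodular hyperplasia and 8.05 points over normal spleen (n = 5 each, exact permutation test, p = 0.048 and 0.016, smallest possible 0.0079). The first of these missed the threshold when any of 8 of its 10 libraries was left out, and the other without normal spleen replicate 1 or 2 (exact p = 0.056 for both).

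Nearly all of this difference lay in 1 hairpin. The mir-126 hairpin, which lies in the span of EGFL7 and gives the best known miRNA of endothelial cells, held 48.8%, 35.4%, 74.7%, 78.4% and 70.9% of all Other reads in hemangiosarcoma, against 12.7% to 34.6% in the others. In these tables its annotated mature sequence is on the 5' arm. In human, the 3' strand of this hairpin is the more abundant.

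The mir-126 hairpin's own Other share did not separate the groups. It was 93.5%, 90.1%, 93.0%, 94.5% and 90.1% in hemangiosarcoma, against 89.9%, 92.1% and 93.8% as the lowest, median and highest of the others (log2 odds ratio 0.09 ± 0.17 SE, adjusted p = 0.82, edgeR). Its Exact share was 54.8% ± 3.59 in hemangiosarcoma and 51.0% ± 3.80 in the others (SD, n = 5 and 10, adjusted p = 0.22, edgeR). What differed was its abundance: it took 10.7% of hairpin reads on average in hemangiosarcoma and 1.99% in the others (exact permutation test, n = 5 and 10, p = 0.00033, the smallest possible). In bulk tissue, more cells of a type and more RNA per cell cannot be told apart.

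With mir-126 left out, an alternative chosen after its share was seen, the library Other share was 4.196% to 6.23% in hemangiosarcoma and 3.45% to 7.99% in the others, with means of 5.43% and 5.54% (exact permutation test, n = 5 and 10, p = 0.89). With every hairpin given the same weight in all libraries, the means were 9.89% and 9.68% (exact permutation test, n = 5 and 10, p = 0.13). The median hairpin had an Other share of 6.86%, 5.88%, 8.58%, 5.44% and 4.95% in hemangiosarcoma, and 5.69% to 7.07% in the others (exact permutation test, n = 5 and 10, p = 0.97). With the abundance of the hairpins held equal, no difference in where reads fell on them was detectable by these library values.

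**Figure D2:**
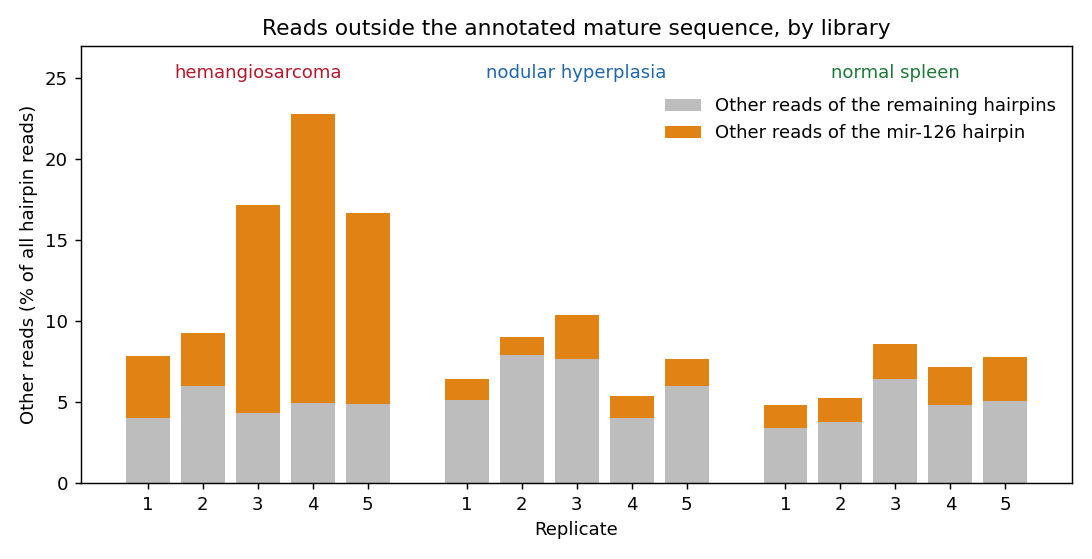
Bars give Other reads as a percent of all hairpin reads, per library, divided into those of the mir-126 hairpin (orange) and of the remaining 202 hairpins (grey). The grey part spans 4.02% to 6.01% for hemangiosarcoma, 4.02% to 7.89% for nodular hyperplasia and 3.40% to 6.41% for normal spleen.

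The library Exact share was lower in hemangiosarcoma. It was 28.4%, 32.0%, 26.4%, 28.2% and 28.8% there, against 34.9%, 31.8%, 32.0%, 32.4% and 31.1% in nodular hyperplasia and 37.0%, 33.8%, 29.2%, 32.0% and 31.1% in normal spleen. Means were 28.7% and 32.5%, a difference of -3.80 points (n = 5 and 10, exact permutation test, p = 0.0070). Against each group alone it was -3.68 points against nodular hyperplasia and -3.92 against normal spleen (n = 5 each, exact permutation test, p = 0.024 and 0.040), and the comparison with normal spleen missed the threshold when any of 7 of its 10 libraries was left out. Hemangiosarcoma replicate 2 lay among the others, and the remaining 4 hemangiosarcoma libraries lay below all 10.

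This value also depended on which hairpins were counted and how they were weighted. Without the 3 most abundant hairpins, mir-143, mir-21 and mir-148a, the difference was 1.12 points (exact permutation test, n = 5 and 10, p = 0.38), and with equal hairpin weights it was -0.03 points (p = 0.94, the same exact test). The 3 differ widely in exactness. For mir-148a the Exact share was 71.9% ± 1.72 in hemangiosarcoma and 72.6% ± 2.71 in the others. For mir-143, a miRNA of smooth muscle, it was 28.9% ± 5.69 and 29.4% ± 2.66. For mir-21, a growth-promoting miRNA raised in many tumors, it was 14.7% ± 3.88 and 15.3% ± 3.98 (SD, n = 5 and 10 for each). None of the 3 passed the test (adjusted p = 0.74, 0.86 and 0.87, edgeR). Meanwhile mir-148a took 6.90% ± 4.47 of mature reads in hemangiosarcoma and 11.5% ± 4.27 in the others, and mir-21 took 25.9% ± 10.8 and 16.1% ± 9.44 (SD, n = 5 and 10, exact permutation tests, p = 0.074 and 0.087). For mir-143 it was 23.8% ± 12.0 and 28.3% ± 14.95 (SD, n = 5 and 10, exact permutation test, p = 0.57). Its difference was 8.48 points from nodular hyperplasia and -17.4 points from normal spleen (n = 5 each, exact permutation tests, p = 0.21 and 0.032). For mir-21 these differences were 1.37 and 18.2 points (n = 5 each, exact permutation tests, p = 0.79 and 0.016). For mir-148a they were -7.44 and -1.71 points (n = 5 each, exact permutation tests, p = 0.032 and 0.46). Together the 3 took 56.6% of mature reads in hemangiosarcoma and 55.9% in the others (n = 5 and 10, exact permutation test, p = 0.88). What part these levels had in the library difference was not tested. The median hairpin's Exact share did not separate the groups, at 32.6%, 33.6%, 28.3%, 32.1% and 30.1% in hemangiosarcoma against 29.2% to 32.6% in the others (exact permutation test, n = 5 and 10, p = 0.23). Without hemangiosarcoma replicate 3 it was 1.75 points higher in hemangiosarcoma (exact permutation test, n = 4 and 10, p = 0.021).

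Hairpins were then tested one at a time. The test gives a log2 odds ratio: 1 unit means that the odds of a read being in the class were doubled in hemangiosarcoma. P-values were adjusted over all hairpins tested, by Benjamini-Hochberg, with a threshold of 0.05. For the Exact share, 20 of 202 hairpins differed between hemangiosarcoma and the others (9.9% of those tested), 14 higher (6.93%) and 6 lower (2.97%). They come from 16 miRNAs, 11 higher and 5 lower, since copies of 1 miRNA share the same exact reads. For the Other share, 3 of 203 differed (1.48%), 2 higher (0.985%) and 1 lower (0.493%). Without hemangiosarcoma replicate 3 these counts were 43 (31 higher and 12 lower) and 25 (12 higher and 13 lower), and they included all 20 and all 3 of the hairpins above. The Exact count was 2, 7 and 11 without hemangiosarcoma replicate 4, 5 and 1.

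**Figure D3:**
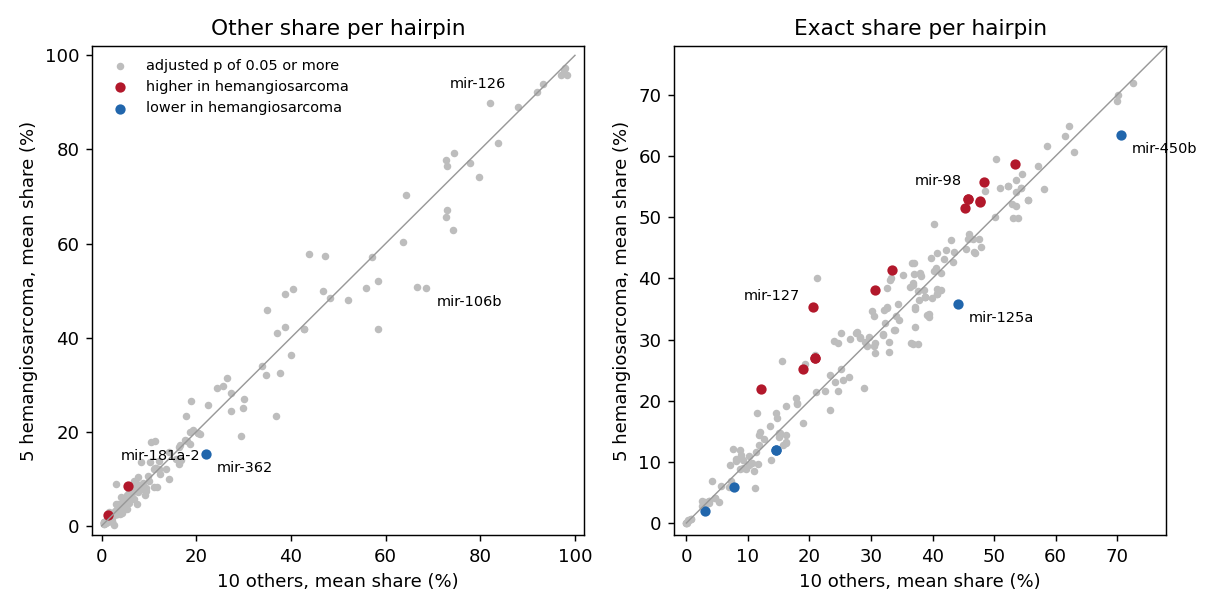
Each point is 1 kept hairpin, with its mean share in the 5 hemangiosarcoma libraries on the y axis and in the 10 others on the x axis, both in percent, for the Other share (left) and the Exact share (right). The line marks equal shares. Red and blue points passed the test, 2 and 1 on the left and 14 and 6 on the right.

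Of the hairpins called, mir-127 differed most in exactness. It is a miRNA of the imprinted Dlk1-Dio3 region that lies in the span of RTL1. Its Exact share was 32.6%, 44.6%, 30.9%, 34.5% and 34.1% in hemangiosarcoma, against 18.8%, 20.3%, 27.3%, 12.0% and 18.7% in nodular hyperplasia and 18.8%, 18.2%, 22.5%, 22.8% and 26.0% in normal spleen. Every hemangiosarcoma library was above every other spleen (log2 odds ratio 1.10 ± 0.18 SE, adjusted p = 0.0021, edgeR). Its reads were few, 33 to 2804 mature reads per library, so the 95% Wilson interval of a single value spans 1.44 to 14.6 points to either side, for counting error only. It also passed against each group alone, with log2 odds ratios of 1.22 ± 0.21 over nodular hyperplasia and 0.99 ± 0.21 over normal spleen (SE, adjusted p = 0.0014 and 0.0066, edgeR).

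The other hairpin whose groups did not overlap was mir-98, a member of the let-7 family in the span of HUWE1. It had Exact shares of 53.7%, 55.2%, 53.0%, 59.3% and 57.8% in hemangiosarcoma, against 46.1%, 48.6% and 50.9% as the lowest, median and highest of the others (log2 odds ratio 0.44 ± 0.09 SE, adjusted p = 0.0081, edgeR). These were 2 of 202 hairpins without overlap (0.99%), both higher in hemangiosarcoma. They were also the only 2 of the 20 that passed whichever of the 15 libraries was left out. Those of mir-26a, mir-30c and mir-93, were lost only without hemangiosarcoma replicate 4 (adjusted p = 0.056 for each, edgeR), and those of let-7e, let-7f, mir-101 and mir-23b without any 1 of hemangiosarcoma replicates 1, 4 and 5 (adjusted p up to 0.076, edgeR).

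More of the let-7 family, which restrains growth and is blocked by LIN28, moved the same way. Of the 8 let-7 family hairpins tested, 5 had a higher Exact share: let-7a-1, let-7a-2, let-7e, let-7f and mir-98. Over all hairpins, 14 of 202 were called higher (6.93%). Against nodular hyperplasia alone all 5 passed as well, but against normal spleen alone only mir-98 did (edgeR). The 2 let-7a copies share their exact reads and count once. For let-7f the share was 59.0%, 57.2%, 55.3%, 61.8% and 60.2% in hemangiosarcoma, against 50.5%, 53.1% and 56.4% as the lowest, median and highest of the others (log2 odds ratio 0.31 ± 0.08 SE, adjusted p = 0.020, edgeR). For let-7e it was 54.3%, 48.8%, 47.2%, 54.1% and 53.1%, against 42.1%, 45.4% and 48.0% (0.36 ± 0.09 SE, adjusted p = 0.018, edgeR). In both, only hemangiosarcoma replicate 3 reached into the range of the others. The share of let-7a averaged 52.5% ± 3.71 and 47.7% ± 1.96 (SD, n = 5 and 10, adjusted p = 0.037, edgeR). This call was lost with limma, with a Total of 10 or more, with 2 groups only and with a replicate block. It was also lost when any of 10 (let-7a-1) or 9 (let-7a-2) of the 15 libraries was left out.

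The rest of the family did not pass. Exact shares were 56.1% to 58.0% in hemangiosarcoma against 50.9% to 56.8% in the others for let-7c, 37.4% to 48.6% against 38.2% to 42.4% for let-7b, and 17.4% to 33.8% against 26.3% to 36.4% for let-7g (adjusted p = 0.24, 0.21 and 0.46, edgeR). Without hemangiosarcoma replicate 3, let-7b also passed (adjusted p = 0.0046, edgeR). In human, precursors of this family fall into those that need a uridine added before Dicer cuts them and those that do not. Of the hairpins placed by that division, 3 of 5 of the first kind and 2 of 3 of the second were called higher, with median log2 odds ratios of 0.28 and 0.29, beside 0.05 over all 202 hairpins. Each kind holds 1 copy of let-7a, so the same exact reads count in both, and the 2 kinds are not independent. Members differ by few bases and may share variant reads. With uniquely assigned reads only, an alternative chosen after seeing the data, let-7e, let-7f and mir-98 still passed (adjusted p = 0.034, 0.027 and 0.0030, edgeR), while let-7a, with no exact read among its uniquely assigned ones, could not be tested.

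**Figure D4:**
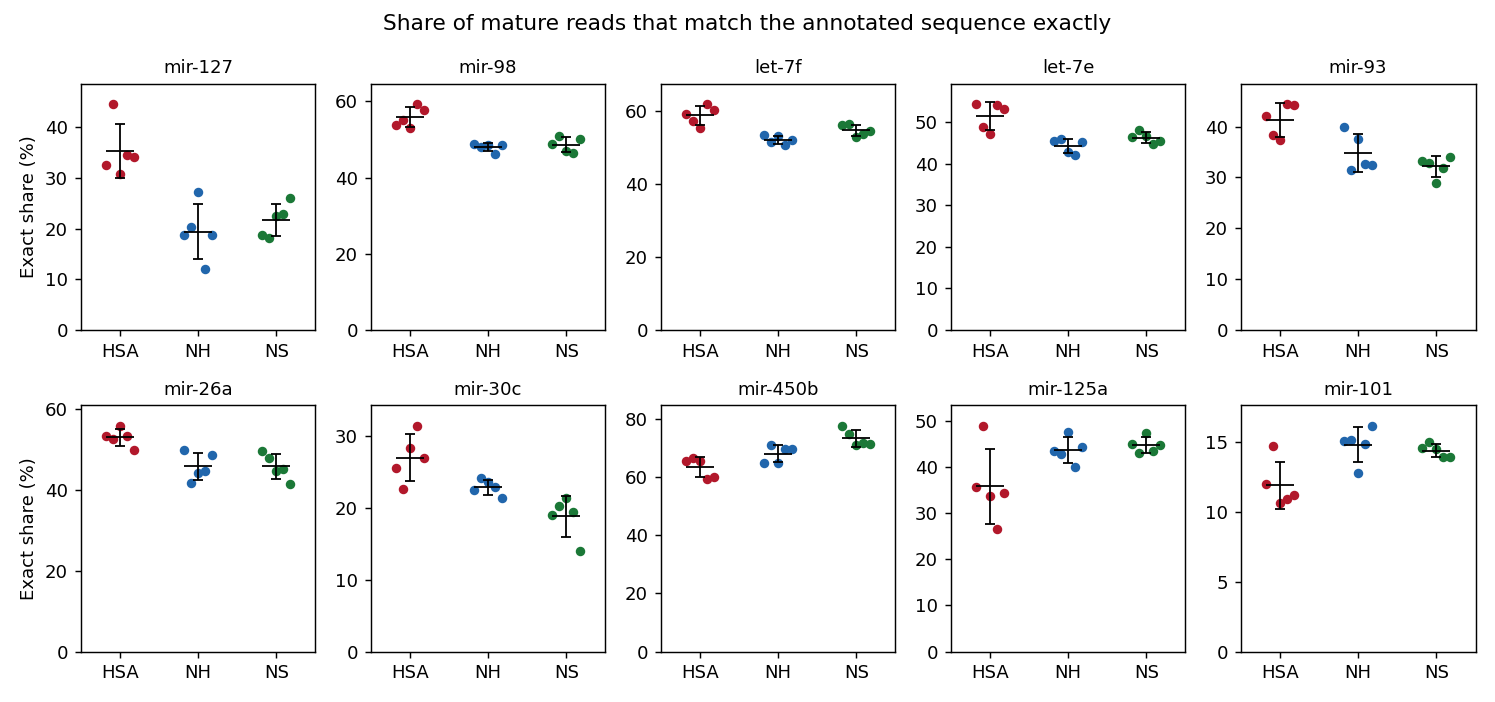
Points are the Exact share (%) in each of the 5 libraries of hemangiosarcoma (HSA), nodular hyperplasia (NH) and normal spleen (NS), with the mean and SD as a black bar. For mir-26a, mir-30c and mir-101 copy 1 is drawn. All HSA points of mir-127 (30.9% and above) and mir-98 (53.0% and above) lie above all NH and NS points.

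Among the other hairpins called higher were mir-93, mir-26a and mir-30c. The Exact share of mir-93, a miRNA of the mir-17 family in the span of MCM7, was 42.0%, 38.3%, 37.5%, 44.4% and 44.3%, against 28.8%, 32.7% and 39.8% as the lowest, median and highest of the others (log2 odds ratio 0.49 ± 0.11 SE, adjusted p = 0.013, edgeR). Of its neighbours in that cluster, mir-25 had an Exact share of 54.3% ± 2.73 and 48.5% ± 3.92 and mir-106b of 21.6% ± 3.55 and 22.5% ± 2.16 in hemangiosarcoma and the others (SD, n = 5 and 10), and neither passed (adjusted p = 0.064 and 0.74, edgeR).

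For mir-26a, a growth-restraining miRNA whose copies lie in the spans of CTDSPL and CTDSP2, the share was 53.4%, 52.4%, 55.8%, 53.4% and 49.8% in hemangiosarcoma, against 41.4%, 45.0% and 49.9% (log2 odds ratio 0.42 ± 0.10 SE, adjusted p = 0.015, edgeR). Here 4 hemangiosarcoma libraries were above all 10 others and replicate 5 lay just below the highest of them. For mir-30c, whose first copy lies near mir-30e in the span of NFYC, it was 25.6%, 22.6%, 28.3%, 31.4% and 26.98%, against 14.04%, 21.4% and 24.1% (0.49 ± 0.12 SE, adjusted p = 0.015, edgeR). The pairs of copies of mir-26a and mir-30c carry the same exact reads, and the other 4 hairpins of the mir-30 family did not pass. Against each group alone, mir-30c passed over normal spleen and not over nodular hyperplasia, while mir-26a passed over both (edgeR).

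Smaller or less stable rises were called in mir-34a, a target of p53, mir-542 and mir-92b. For mir-34a the Exact share averaged 38.1% ± 4.15 in hemangiosarcoma and 30.7% ± 4.83 in the others (SD, n = 5 and 10, adjusted p = 0.025, edgeR). It passed against normal spleen, at 27.2% ± 1.77 there, and not against nodular hyperplasia, at 34.2% ± 4.29 (SD, n = 5 each, adjusted p = 0.016 and 0.305, edgeR). For mir-92b the shares were 27.2%, 21.3%, 10.2%, 26.2% and 24.7%, against 0% to 28.6% in the others, on as few as 14 mature reads in a library (adjusted p = 0.035, edgeR). Its groups overlap widely, and the call was lost with DESeq2, limma, 2 groups only, a replicate block and uniquely assigned reads. It was also lost when any of 9 of the 15 libraries was left out. That of mir-34a was lost without any 1 of hemangiosarcoma replicates 1, 2, 4 and 5. The mir-34a call was also lost with 2 groups only and with limma at a pseudocount of 5.

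Lower exactness in hemangiosarcoma was called for mir-125a, mir-450b, mir-101, mir-15b and mir-23b. Against each group alone, mir-125a and mir-15b passed against neither, and mir-101 passed against nodular hyperplasia only (edgeR). The calls of mir-125a and mir-15b were lost with limma and with uniquely assigned reads, and when any of 6 and 9 of the 15 libraries was left out. The Exact share of mir-125a was 35.6%, 48.9%, 33.7%, 26.5% and 34.3%, against 39.9%, 43.9% and 47.5% as the lowest, median and highest of the others (log2 odds ratio -0.52 ± 0.15 SE, adjusted p = 0.035, edgeR). Hemangiosarcoma replicate 2 was the highest of all 15 and the remaining 4 were the lowest. The mir-125a hairpin lies within 10000 bases of let-7e, whose Exact share was higher, and of mir-99b, which did not pass (adjusted p = 0.81, edgeR).

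For mir-101, which targets the growth regulator EZH2 in human, the share was 12.0%, 14.7%, 10.7%, 10.9% and 11.2%, against 12.8%, 14.7% and 16.2% (log2 odds ratio -0.35 ± 0.09 SE, adjusted p = 0.021, edgeR). For mir-15b, a cell cycle brake, means were 5.82% ± 1.28 and 7.74% ± 0.94 (SD, n = 5 and 10, adjusted p = 0.035, edgeR). In both, 4 of 5 hemangiosarcoma libraries were below all 10 others, the exceptions being replicate 2 for mir-101 and replicate 3 for mir-15b.

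The mir-424 cluster held changes in both directions. For mir-450b the Exact share was 65.6%, 66.6%, 65.4%, 59.4% and 60.1% in hemangiosarcoma, against 64.8%, 70.9% and 77.6% as the lowest, median and highest of the others (log2 odds ratio -0.47 ± 0.11 SE, adjusted p = 0.015, edgeR). That of its neighbour mir-542 was 23.4%, 19.1%, 26.8%, 27.5% and 29.0%, against 12.3%, 18.5% and 27.8% (0.57 ± 0.15 SE, adjusted p = 0.022, edgeR). Of the other cluster members, mir-424 and mir-503 did not pass (adjusted p = 0.88 and 0.46, edgeR), and mir-450a had no exact reads. The calls of mir-450b and mir-542 were lost without hemangiosarcoma replicate 4 or 5 (adjusted p up to 0.094, edgeR). That of mir-542 was also lost with limma, with 2 groups only and with a replicate block, while that of mir-450b was not. Against normal spleen alone mir-450b and mir-542 passed, and against nodular hyperplasia alone no hairpin of the cluster did (edgeR). The study picked this cluster from the same samples.

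A comparison with the 10 others can hide a difference between their 2 groups. For mir-23b, a miRNA of blood vessel cells among others, the Exact share was 1.16%, 1.69%, 3.26%, 1.75% and 1.81% in hemangiosarcoma, against 3.58% to 5.05% for nodular hyperplasia and 1.67% to 2.13% for normal spleen. Its call (log2 odds ratio -0.65 ± 0.17 SE, adjusted p = 0.020, edgeR) rested on nodular hyperplasia, over which it was -1.24 ± 0.19, against -0.06 ± 0.19 over normal spleen (SE, adjusted p = 0.00069 and 0.88, edgeR). The related mir-23a had shares of 5.38%, 9.21%, 23.4%, 6.15% and 7.64% in hemangiosarcoma, with nodular hyperplasia at 16.5% to 21.0% and normal spleen at 6.77% to 10.6%. Hemangiosarcoma replicate 3 was above every nodular hyperplasia library, and the other 4 were below the highest normal spleen. With uniquely assigned reads the log2 odds ratio of mir-23b was -0.69 ± 0.28, as large as with all reads, but its error was larger and the call was lost (SE, adjusted p = 0.19, edgeR). The mir-23b call was also lost with limma and with 2 groups only. Without hemangiosarcoma replicate 3, mir-23a was called lower against the others (-0.96 ± 0.14 SE, adjusted p = 0.00030, edgeR).

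Against each group alone, the Exact share differed in 19 of 202 hairpins from nodular hyperplasia (9.41%), 14 higher (6.93%) and 5 lower (2.48%), and in 15 from normal spleen (7.43%), 10 higher (4.95%) and 5 lower (2.48%). Nodular hyperplasia itself differed from normal spleen in 21 (10.4%), with 8 higher (3.96%) and 13 lower (6.44%). These 3 counts depended on the fit: they were 2, 19 and 40 with each pair fitted alone, 7, 16 and 20 with limma at a pseudocount of 0.5, 2, 17 and 18 without nodular hyperplasia replicate 2, and 47, 44 and 37 without hemangiosarcoma replicate 3. The miRNAs called higher in hemangiosarcoma over each group alone were mir-127, mir-98, mir-93 and mir-26a. The comparisons share samples and are not independent. Members of the fixed lists that were called against 1 group only included mir-221, an endothelial miRNA, at 28.0% ± 4.55 against 35.9% ± 2.23 in nodular hyperplasia (adjusted p = 0.019, edgeR), and mir-411, of the Dlk1-Dio3 region, at 29.8% ± 1.51 against 19.2% ± 3.71 in normal spleen (SD, n = 5 each, adjusted p = 0.0066, edgeR). The Exact share of mir-411 was also called higher in nodular hyperplasia than in normal spleen (edgeR). Its mature reads were as few as 31 in a library. Another miRNA of the Dlk1-Dio3 region, mir-381, was higher in hemangiosarcoma than in nodular hyperplasia (adjusted p = 0.036, edgeR), at 52.2% ± 2.43 in hemangiosarcoma, 44.7% ± 9.85 in nodular hyperplasia and 61.2% ± 3.00 in normal spleen (SD, n = 5 each).

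Read position changed in fewer hairpins. The Other share of mir-362, a miRNA of the mir-532 cluster in the span of CLCN5, was 13.8%, 15.9%, 16.1%, 13.1% and 17.4% in hemangiosarcoma, against 16.8%, 21.8% and 25.5% as the lowest, median and highest of the others (log2 odds ratio -0.65 ± 0.15 SE, adjusted p = 0.039, edgeR). Only nodular hyperplasia replicate 1, at 16.8%, lay within the hemangiosarcoma range. For mir-181a-2, a copy of a miRNA known for its part in lymphocyte development, it was 8.66%, 5.46%, 8.84%, 10.3% and 9.34%, against 6.26% to 7.36% for nodular hyperplasia and 4.36% to 5.01% for normal spleen (0.63 ± 0.15 SE, adjusted p = 0.039, edgeR). All but hemangiosarcoma replicate 2 were above all 10 others. Mature reads shared by copies were divided evenly, so a copy's Other share can also move with how much each copy gave. Read position and the output of each copy cannot be told apart here. With copies merged by name, 0 hairpins were called for the Other share against the others (edgeR).

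For mir-450b the Other share was 1.33%, 2.26%, 3.42%, 1.94% and 2.32% in hemangiosarcoma, against 1.49% to 2.65% for nodular hyperplasia and 0.25% to 0.85% for normal spleen (log2 odds ratio 1.07 ± 0.26 SE, adjusted p = 0.039, edgeR). Both kinds of mass were above normal spleen and overlapped each other. All 3 of these calls sat just under the threshold, and each was lost when any of at least 12 of the 15 libraries was left out. In no hairpin of 203 did the Other shares of hemangiosarcoma and the others fail to overlap (0%).

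Against nodular hyperplasia alone, 0 of 203 hairpins passed for the Other share (0%, edgeR), with 18 at an unadjusted p under 0.05. DESeq2 also called 0, and limma 0 or 1 by its pseudocount, but 8 passed without hemangiosarcoma replicate 3, 3 higher and 5 lower. Against normal spleen alone 14 passed (6.9%), 8 higher (3.94%) and 6 lower (2.96%), and nodular hyperplasia differed from normal spleen in 8 (3.94%), with 5 higher (2.46%) and 3 lower (1.48%). The 14 became 5, 5, 7 and 4 without hemangiosarcoma replicate 4 or 5 or normal spleen replicate 1 or 2. Without hemangiosarcoma replicate 3 they became 32, with 12 higher and 20 lower, so that most were then lower. All 6 hairpins with a lower Other share than normal spleen, mir-505, mir-106b, mir-708, mir-362 and both copies of mir-30c, have their annotated mature sequence on the 5' arm. Of the 8 with a higher one, mir-28, mir-500, mir-30e and mir-140 have it on the 3' arm, and mir-181a-1, mir-181a-2, mir-145 and mir-450b on the 5' arm. Over all 203 hairpins it is on the 5' arm in 120. For the copies of mir-30c and mir-181a, the even division of mature reads sets the same limit as for mir-181a-2 above. For nodular hyperplasia against normal spleen, the 3 called lower were also all on the 5' arm, with 4 of the 5 called higher.

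The sizes can be seen in mir-106b, where the Other share was 60.2%, 49.0%, 70.8%, 37.8% and 35.2% in hemangiosarcoma, against 53.1% to 69.5% for nodular hyperplasia and 63.4% to 87.4% for normal spleen (log2 odds ratio over normal spleen -1.63 ± 0.42 SE, adjusted p = 0.024, edgeR). For mir-28, a lymphocyte miRNA, it was 23.1%, 28.6%, 27.5%, 25.6% and 27.6%, against 20.2% to 28.6% and 8.39% to 19.2% (1.14 ± 0.22 SE, adjusted p = 0.0056, edgeR). For mir-140 it was 11.02%, 18.02%, 12.7%, 23.7% and 23.9%, against 9.45% to 16.2% and 3.57% to 12.7% (1.40 ± 0.35 SE, adjusted p = 0.024, edgeR). In each, nodular hyperplasia lay between hemangiosarcoma and normal spleen on average. Within normal spleen, replicates 1 and 2 had the 2 lowest values of mir-28 and mir-140 and the 2 highest of mir-106b. The smooth muscle miRNA mir-145 had 29.8% ± 4.43, 30.5% ± 2.81 and 20.8% ± 3.21 in hemangiosarcoma, nodular hyperplasia and normal spleen (SD, n = 5 each, adjusted p against normal spleen 0.024, edgeR). Among the other hairpins called lower than in normal spleen, mir-505 averaged 95.9% in hemangiosarcoma and 99.3% in normal spleen, and mir-708 41.8% and 66.5% (adjusted p = 0.0099 and 0.037, edgeR).

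**Figure D5:**
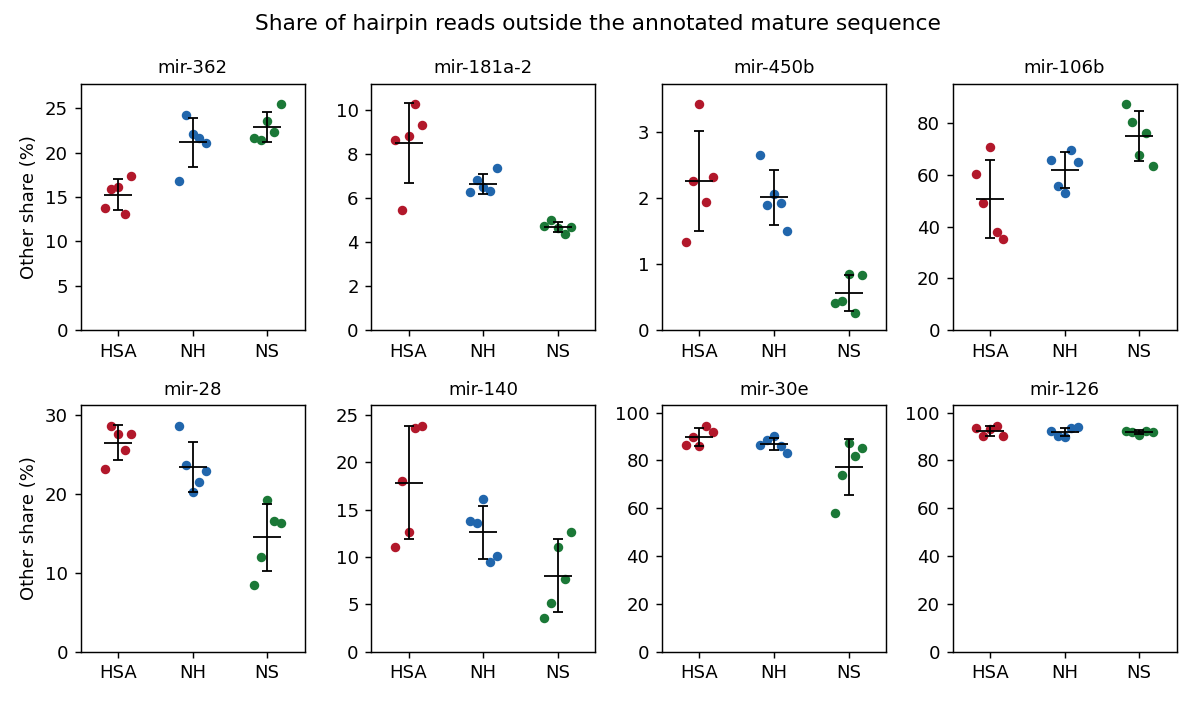
Points are the Other share (%) in each of the 5 libraries of hemangiosarcoma (HSA), nodular hyperplasia (NH) and normal spleen (NS), with the mean and SD as a black bar. The mir-126 hairpin sits at 89.9% to 94.5% in all 15 libraries, while NS values of mir-450b stay at 0.85% or below.

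Lists of miRNAs by cell type, family and genomic cluster were read against these calls. Over all hairpins, 6.93% were called higher and 2.97% lower for the Exact share. For the Exact share in hemangiosarcoma against the others, calls fell in the 2 let-7 lists described above, the mir-30 family (2 of 6 higher), the clusters of mir-17-92, mir-106a and mir-106b (1 of 15 higher), the mir-424 cluster (1 of 4 higher and 1 lower) and the Dlk1-Dio3 region (1 of 5 higher). Their median log2 odds ratios were 0.19, 0.14, -0.24 and 0.49 in that order, beside 0.05 over all hairpins. The 1 of 15 is a share like that over all hairpins. The study's own miRNAs, picked by it from the same samples, had 3 of 19 higher and 1 lower, with a median of -0.01, and are not independent evidence.

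No member was called in the lists for lymphocytes (10 tested), endothelium (11), erythroid cells (2), myeloid cells (3), stroma and smooth muscle (8), striated muscle (5), pancreas, liver and epithelium (5) or the mir-29 family (5), with medians of -0.15 to 0.34. For the Other share, 1 of 10 lymphocyte hairpins (mir-181a-2), 1 of 5 of the mir-424 cluster (mir-450b) and 1 of 20 of the study's miRNAs (mir-450b) were higher. Their medians were 0.49, -0.08 and -0.11, beside -0.02 over all hairpins, and the other 12 lists had 0 calls. For comparison, 0.985% of all hairpins were called higher and 0.493% lower for the Other share.

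The list counts changed without hemangiosarcoma replicate 3, when 31 of 202 hairpins were higher and 12 lower for the Exact share, and 12 of 203 higher and 13 lower for the Other share. For the Exact share, 3 of 11 endothelial hairpins were then lower (mir-221, mir-222 and mir-23a), 1 of 10 lymphocyte hairpins was higher and 2 lower, 4 of 15 of the mir-17-92, mir-106a and mir-106b clusters were higher, 4 of 5 of the let-7 precursors that need a uridine were higher, and 1 of 8 of stroma and smooth muscle (mir-152) was higher. For the study's own miRNAs it was 5 of 19 higher and 1 lower, and the other 9 lists kept their Exact counts. For the Other share, 4 of 10 lymphocyte hairpins were higher, the added ones being mir-28 and both copies of mir-181b. In the endothelial list 1 of 11 was then higher and 2 lower, in the mir-30 family 1 of 6 higher and 1 lower, and in the mir-424 cluster 2 of 5 higher. Lower Other shares were called in 2 of 15 of the mir-17-92, mir-106a and mir-106b clusters, 1 of 3 myeloid (mir-21), 1 of 8 stromal and smooth muscle (mir-22) and 1 of 5 let-7 hairpins (let-7g). For the study's own miRNAs it was 4 of 20 higher and 2 lower, and the other 6 lists had 0 calls.

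The Exact share varied more within hemangiosarcoma than within the other groups. Its SD over 5 libraries had a median of 3.70 points over 174 hairpins in hemangiosarcoma, 2.23 in nodular hyperplasia and 1.98 in normal spleen. Without replicate 3 the median in hemangiosarcoma was 2.56. The SD was highest in hemangiosarcoma in 114 of them, or in 90 without replicate 3. For the Other share the medians were 2.06, 1.45 and 1.08 points over 185 hairpins, highest in hemangiosarcoma in 120. This rested on replicate 3: without it the median in hemangiosarcoma was 1.31, below that of nodular hyperplasia, and hemangiosarcoma was highest in 68.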

How the data were processed

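Reads were checked with FastQC, trimmed, filtered and counted in CLCbio by the authors, against canine miRBase hairpins; tool versions were not given in the sources used here, and the submitters' notes name the build canFam3. Each deposited table holds whole read counts for 1 library, not normalized, with mature, exact mature and other reads of every hairpin in separate columns. The meaning of exact is taken from the column names. Reads matching several copies were divided evenly: exact reads of copies differed by at most 1 in 345 of 345 comparisons. A hairpin that a library does not list was set to 0.

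Counts in and out of a class were fitted per hairpin in edgeR 4.0.16 (quasi-likelihood) in R 4.3.3 with terms for library, and for class by group. All 15 libraries share 1 estimate of the spread, although the Exact share varied more within hemangiosarcoma. Hemangiosarcoma was compared with the mean of the other 2 groups and with each. Mature reads were under 20 in 139 of 3045 hairpin-library pairs. Library values were tested by exact permutation (3003 or 252 orderings, two-sided). The edgeR step was tested on simulated data with the same spread in every group, so that test does not cover groups of unequal spread. Alternatives were DESeq2 1.42.0, limma 3.58.1 on log2 odds (pseudocounts 0.5 and 5), other minimums, merged copies, a replicate block and leaving out each library. Hairpins were matched to RefSeq by name (203 of 203). Spanning genes and neighbours within 10000 bases were then found by the coordinates of RefSeq's own assembly. Permutations used numpy 2.4.6 in Python 3.11.15, Wilson intervals scipy 1.17.1, tables pandas 2.3.3 and figures matplotlib 3.10.9.

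Hairpins and lists were chosen with earlier results of these data known. Named hairpins were, per measure, up to 6 with the largest difference in mean share in each direction among those called, the 5 with the highest Total, the 5 with the highest Other or lowest Exact share, list members, and those in the closing section. Hairpins called against normal spleen alone and neighbours of named hairpins were named after their values were seen. The labels call the samples of a group biological replicates. Intervals cover counting error only, since PCR reads are not independent molecules.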

Additional observations from a re-analysis of the deposited data

Results flagged for a closer look

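Library values and the shares of the named hairpins were searched for a sample far from the other 4 of its group (Dixon's test at the 95% level). Of 177 groups of 5 searched, 14 had such a sample, and chance alone gives about 1 in 20.

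In hemangiosarcoma, 5 of them were replicate 3. Its Other share was 89.6% for mir-505, against 96.0% to 98.1% in the other 4, 88.9% for mir-676, against 97.5% to 99.7%, and 88.3% for mir-193b, against 97.0% to 98.6%. Its Exact share was 23.4% for mir-23a, against 5.38% to 9.21%, and 0.534% for mir-592, against 0%. The Exact share of mir-127 was 44.6% in replicate 2, against 30.9% to 34.5%, and that of mir-210 was 0.158% in replicate 5, against 0% to 0.0347%. Several of these values rest on few reads. In hemangiosarcoma mir-592 had 8 exact reads of 1557, with 1497 mature reads in its deepest library, and mir-210 had 3 of 6666. The lowest read counts in a library were 36 for mir-676 and 94 for mir-193b. Counting error may thus account for part of these flags, which was not tested.

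In nodular hyperplasia replicate 4, the Exact share was 46.1% for mir-98, against 48.0% to 48.7%, 44.6% for let-7a-1, against 46.4% to 46.7%, and 44.8% for let-7a-2, against 46.3% to 46.6%, the let-7a copies sharing their exact reads. In nodular hyperplasia replicate 3, the Other share of mir-451 was 25.2%, against 4.68% to 8.43%, and the Exact share was 62.1% for mir-381, against 38.5% to 42.9%, and 1.75% for mir-592, against 0%. That value of mir-592 rests on 1 exact read. In normal spleen replicate 1, the Other share of mir-148a was 0.636%, against 0.672% to 0.681%.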

How the results depend on the processing

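Counts of called hairpins depended on the setting. For the Other share, hemangiosarcoma against the others gave 3 calls in edgeR, 9 with DESeq2, and 0 with limma (pseudocount 0.5 or 5), with a Total of 10 or more, with the library median removed, with copies merged, with 2 groups only and with a replicate block. Against nodular hyperplasia the 0 calls became 1 with limma at a pseudocount of 5. Against normal spleen 14 became 6 with the library median removed and 4 with 2 groups only, and for nodular hyperplasia against normal spleen 8 became 4 with the median removed and 5 with the replicate block. For the Exact share, the 20 calls against the others became 8 with uniquely assigned reads, where 12 of the 20 could be tested. Against nodular hyperplasia 19 became 7 with limma at either pseudocount, 12 with the library median removed, 2 with 2 groups only and 12 with uniquely assigned reads. Against normal spleen 15 became 32 with DESeq2, 28 with a Total of 10000 or more, 29 with the median removed and 8 with uniquely assigned reads. For nodular hyperplasia against normal spleen 21 became 40 with 2 groups only and 11 with uniquely assigned reads. The causes were not tested.

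The library Other difference was -0.34, -0.93 and 0.26 points (against the others, nodular hyperplasia and normal spleen) with only hairpins mostly read on the mature sequence, 0.21, 0.25 and 0.16 with equal weights, and -0.11, -0.84 and 0.62 without mir-126. The library Exact difference was 1.12 in each comparison without the 3 most abundant hairpins, and -0.033, 0.37 and -0.44 with equal weights. Settings without mir-126 and with uniquely assigned reads were chosen after seeing the data.

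Leaving out 1 library gave 0 to 25, 0 to 8, 4 to 32 and 1 to 15 calls for the Other share (hemangiosarcoma against the others, nodular hyperplasia and normal spleen, then nodular hyperplasia against normal spleen) and 2 to 43, 2 to 47, 7 to 44 and 8 to 37 for the Exact share. Every highest count came without hemangiosarcoma replicate 3. The lowest for the Exact share came without hemangiosarcoma replicate 4, hemangiosarcoma replicate 4 or nodular hyperplasia replicate 2, normal spleen replicate 3, and nodular hyperplasia replicate 5. Library Other differences were 5.51 to 9.25, 4.99 to 8.73 and 6.04 to 9.78 points, and library Exact differences -4.60 to -3.20, -4.48 to -3.07 and -4.77 to -2.82. Median hairpin differences were -0.58 to 0.33, -0.57 to 0.34 and -0.59 to 0.32 for Other, and 0.42 to 1.75, 0.85 to 2.18 and -0.01 to 1.31 for Exact. Among named hairpins, 688 values kept their side of the threshold, 108 lost it and 14 gained it, and under other settings 440, 50 and 11.

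Samples share only replicate numbers. Same-numbered deviations correlated at -0.45 to 0.38 (Other) and -0.25 to 0.28 (Exact) over 15 pairs of libraries. For 60 pairs of different number the ranges were -0.40 to 0.36 and -0.26 to 0.28. By these ranges no sign of pairing by number was seen. With the replicate block, library Other differences were 6.998 and 8.05 points over nodular hyperplasia and normal spleen (exact permutation p = 0.0625 for both), and library Exact differences -3.68 and -3.92 (exact permutation p = 0.125 and 0.0625), where 0.0625 is the smallest p that 5 pairs allow.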

Other observations

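Several hairpins passed in hemangiosarcoma against the others only when hemangiosarcoma replicate 3 was left out, and were picked out here after their values were seen. The Exact share of mir-222, an endothelial miRNA, averaged 24.5% ± 5.92 in the remaining 4 hemangiosarcoma libraries and 36.4% ± 4.07 in the others (SD, n = 4 and 10, adjusted p = 0.0027, edgeR), while replicate 3 had 49.4%. Its Other share was 66.1% ± 8.48 and 47.2% ± 12.6 (SD, n = 4 and 10, adjusted p = 0.020, edgeR), with 22.1% in replicate 3. The Other share of mir-361 was 55.6% ± 4.86 and 74.3% ± 7.38 (SD, n = 4 and 10, adjusted p = 0.0010, edgeR), with 92.5% in replicate 3. The Exact share of mir-365-1 was 46.1% ± 4.04 and 38.1% ± 3.30 (SD, n = 4 and 10, adjusted p = 0.021, edgeR), with 17.4% in replicate 3. In each of these, replicate 3 lay beyond the mean of the others, on the side away from the remaining hemangiosarcoma libraries.

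Other reads also have an exact class in the tables, not used above. It held 67.1%, 66.4%, 74.9%, 68.2% and 66.2% of Other reads in hemangiosarcoma, with nodular hyperplasia at 65.1% to 67.2% and normal spleen at 68.1% to 70.2%. Hemangiosarcoma did not separate from the others (exact permutation test, n = 5 and 10, p = 0.45). Nodular hyperplasia lay wholly below normal spleen (exact permutation test, n = 5 each, p = 0.0079, the smallest possible). The 110 hairpins outside the limit on Total held 0.0105% to 0.0676% of a library's reads.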
